A study of Oryza sativa with 6 samples.

Results

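The regions described here are the HMG-GFP peaks on the short arms of rice chromosomes 4 and 10, 2 arms known from cytology as rich in heterochromatin. A peak was counted as a member where its midpoint lay on chromosome 4 from 1 to 8.7 Mb or on chromosome 10 from 1 to 7.2 Mb. There were 1975, 1753 and 877 such peaks in the lists of replicates 1, 2 and 3, that is 3.29%, 3.09% and 2.11% of the peaks on the 12 nuclear chromosomes, whereas the 2 intervals make up 3.72% of the sequence that the lists span. Merging overlapping members of the 3 lists gave 1104 regions on chromosome 4 and 931 on chromosome 10, 2035 in all, of 60991 merged regions genome-wide. Each short arm was set against an interval of the long arm of its own chromosome, from 20 to 34.5 Mb on chromosome 4 and from 12 to 22.2 Mb on chromosome 10. Long arm below means this interval. The centromeres were not placed here, and the sequence between the 2 intervals of a chromosome was assigned to neither arm.

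The study mapped OsHMGB1, a rice chromatin protein whose role in phosphate homeostasis and growth is named in the title of the series. All samples were leaf blades of HMG-GFP transgenic plants after 28 d under a condition labelled HP, which is not spelled out. Chromatin was recovered with an antibody against green fluorescent protein (GFP) in 3 immunoprecipitates (IP), and 3 inputs were prepared without antibody. Only the IP samples have peak lists here, no plants without the fusion were among the samples, and the promoter of the transgene and the number of lines are not given. The labels do not say that the replicates were separate plants, so the spread between them may be technical. The list of replicate 3 stood apart from the others, with 41474 peaks on the nuclear chromosomes against 60035 and 56812, and every result below is given per replicate for that reason. The depth of the libraries is unknown, since the lists hold no read counts.

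HMGB proteins are abundant chromatin proteins that attach to DNA largely regardless of its sequence, bend it, and are known to take part in opening chromatin and in the assembly of protein complexes on it. Heterochromatin is the compact, repeat-rich and gene-poor part of a chromosome, marked in plants by DNA methylation and methylation of histone H3 at lysine 9. In rice the short arms of chromosomes 4 and 10 stain densely along much of their length. The peak lists carry no histone mark, methylation or gene annotation, so the heterochromatic state of these arms was not checked in these leaves. No gene is assigned to a position and no sequence is shown, because the gene table at hand belongs to another assembly than the lists. Their build was not given in the sources used here.

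HMG-GFP peaks were fewer on the short arm than on the long arm of chromosome 4 in each replicate, and the gap was widest in replicate 3. The short arm held 1070, 939 and 443 peaks in replicates 1, 2 and 3, which is 139, 122 and 57.5 peaks per Mb. The long arm held 186, 179.7 and 151 peaks per Mb in the same order. The ratio of short to long arm was 0.75, 0.68 and 0.38. Peaks covered 33.2%, 30.5% and 8.98% of the short arm, a mean of 24.2% ± 13.3 (SD, n = 3), and 37.8%, 40.5% and 35.8% of the long arm, a mean of 38.0% ± 2.39 (SD, n = 3). Replicates 1 and 2 thus covered the short arm somewhat less than the long one, and replicate 3 covered it far less, so the spread between replicates was much larger on the short arm.

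The within-replicate differences in covered sequence on chromosome 4, short minus long arm, were -4.58, -10.01 and -26.8 percentage points, a mean of -13.8 ± 11.6 (SD, n = 3). The covered share was lower on the short arm in 3 of 3 replicates. The exact two-sided sign-flip permutation test over the 3 replicates gave p = 0.25, the smallest it can give with 3 replicates, so no comparison of this design can reach the conventional level of significance. The Benjamini-Hochberg adjusted p over the 13 exact permutation tests was 0.325 wherever p was 0.25. Without replicate 3 the mean difference was -7.29 points.

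Chromosome 10 showed the same order at a smaller size. Its short arm held 905, 814 and 434 peaks in replicates 1, 2 and 3, or 146, 131 and 70.0 per Mb, against 174, 165 and 126 per Mb on the long arm. Peaks covered 30.8%, 28.8% and 11.3% of the short arm, a mean of 23.6% ± 10.7 (SD, n = 3), and 32.8%, 34.1% and 25.7% of the long arm, a mean of 30.9% ± 4.52 (SD, n = 3). The differences were -2.00, -5.35 and -14.5 points, lower in 3 of 3 replicates (exact two-sided sign-flip permutation test, p = 0.25, adjusted p = 0.325). Their mean was -7.27 ± 6.44 (SD, n = 3), and -3.67 without replicate 3.

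Between the short arms, the order of the covered share depended on the replicate. The covered share of chromosome 4 exceeded that of chromosome 10 by 2.42 points in replicate 1 and 1.76 in replicate 2, and the difference was -2.28 in replicate 3. The mean difference of 0.63 ± 2.55 points (SD, n = 3) was smaller than its spread (exact two-sided sign-flip permutation test, p = 0.75, adjusted p = 0.886). In peaks per Mb, median fold, fold percentile and recurrence, which are given per replicate with each arm, chromosome 4 lay below chromosome 10 in 3 of 3 replicates, and these differences were not tested.

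**Figure D1:**
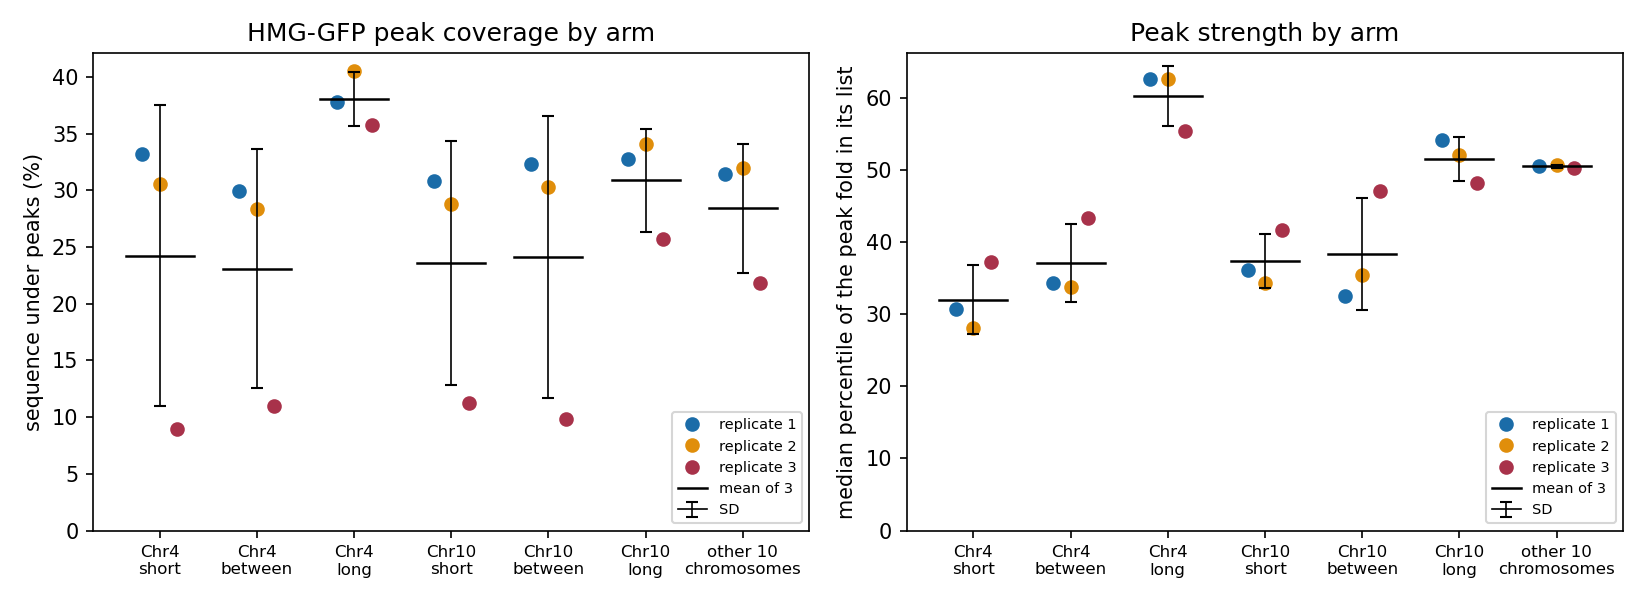
Covered sequence (left, percent) and the median percentile of the peak fold within its own list (right) on the short arms, the long arms, the intervals between them and the other 10 chromosomes; points are replicates, horizontal bars the mean of 3 and whiskers the SD. On both short arms replicate 3 lies far below the others in covered share, at 8.98% and 11.3%, and all 3 replicates lie at lower fold percentiles than on the long arms.

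Set against the other 10 chromosomes in place of the long arms, both short arms had fewer peaks per Mb in 3 of 3 replicates. The differences were -22.6, -31.4 and -55.6 peaks per Mb on chromosome 4 and -15.6, -22.1 and -43.1 on chromosome 10 (exact two-sided sign-flip permutation test, p = 0.25 each). Those chromosomes were covered to 31.5%, 31.9% and 21.9%. The chromosome 4 short arm differed from them by 1.72, -1.41 and -12.9 points in replicates 1, 2 and 3, so the sign for covered share depended on the replicate (exact two-sided sign-flip permutation test, p = 0.75). For the chromosome 10 short arm the differences were -0.70, -3.17 and -10.6 points (p = 0.25 in the same exact test). The long arm of chromosome 4 stood above the other chromosomes in all 3 lists, which widens its contrast with the short arm. The covered share of replicate 3 was 0.27 times that of replicate 1 on the chromosome 4 short arm and 0.37 times on the chromosome 10 short arm. It was 0.95 and 0.78 times on the long arms and 0.69 times on the other 10 chromosomes. These comparisons with the other chromosomes were chosen after the data were seen.

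Windows of 0.5 Mb showed where along the chromosomes the lists parted. The 15 windows of the chromosome 4 short arm were covered to between 26.8% and 38.1% in replicate 1, between 24.8% and 35.9% in replicate 2 and between 4.28% and 15.2% in replicate 3. The window from 3500001 to 4000000 had the highest coverage of the arm in replicate 1 (38.1%), shared the highest in replicate 2 (35.9%) and had the lowest in replicate 3. The lowest in replicates 1 and 2 was from 5000001 to 5500000, at 26.8% and 24.8%, where replicate 3 covered 10.3%. The neighbouring windows from 2000001 to 3500000 were covered to 4.68%, 5.36% and 4.84% in replicate 3, so 4 windows in a row stayed below 6% in that list. The window from 7000001 to 7500000 had the highest coverage in replicate 3, 15.2%, and 36.3% and 35.9% in replicates 1 and 2.

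The 12 windows of the chromosome 10 short arm were covered to between 23.2% and 36.8% in replicate 1, between 23.04% and 30.7% in replicate 2, and between 7.76% and 16.3% in replicate 3. The highest window of replicate 1, from 3000001 to 3500000, was covered to 9.08% in replicate 3. The highest of replicate 3, from 1500001 to 2000000, was covered to 25.9% in replicate 1. The highest of replicate 2 was from 4500001 to 5000000, the lowest of replicates 1 and 2 from 2000001 to 2500000 and the lowest of replicate 3 from 6500001 to 7000000. Across the windows of one short arm, replicates 1 and 2 varied together, with a Pearson r of 0.90 over the 15 windows of chromosome 4 and 0.87 over the 12 of chromosome 10. Replicates 1 and 3 did not, with r of -0.30 and -0.49. On the long arms the same pair had r of 0.27 over 29 windows and 0.54 over 20. Windows share their libraries and are not replicates, so these coefficients are a description and carry no p-value.

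Among the 624 windows of the other 10 chromosomes, the lower quartile of the covered share stood at 26.9%, 27.0% and 13.5% in replicates 1, 2 and 3. Of the 15 windows of the chromosome 4 short arm, 1, 2 and 14 lay below that quartile in replicates 1, 2 and 3. Of the 12 windows of the chromosome 10 short arm, 3, 5 and 9 did. No window of the chromosome 4 long arm lay below it in any replicate. On the chromosome 10 long arm, 3, 4 and 2 of 20 windows did.

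Taken as whole intervals, each short arm and the sequence next to it had covered shares close to each other. Such means cannot show whether there is a step at the inner boundary. The window from 8500001 to 9000000 on chromosome 4, which holds the boundary, was covered to 40.3%, 35.5% and 7.64% in replicates 1, 2 and 3. For chromosome 10 the window from 7000001 to 7500000 was covered to 41.8%, 41.4% and 7.24%. Between the short and long arm intervals, from 8.7 to 20 Mb on chromosome 4, peaks covered 30.0%, 28.4% and 10.96%. From 7.2 to 12 Mb on chromosome 10 they covered 32.3%, 30.3% and 9.81%. The covered share of the chromosome 4 short arm differed from the interval next to it by 3.23, 2.16 and -1.98 points (exact two-sided sign-flip permutation test, p = 0.50). On chromosome 10 the differences were -1.50, -1.55 and 1.46 points (p = 0.50 in the same exact test). Some other measures differed in the same direction in every replicate, but not on both chromosomes. The chromosome 10 short arm had more peaks per Mb than the interval next to it in 3 of 3 replicates, by 15.6, 13.8 and 6.88 (p = 0.25 in the same exact test). The chromosome 4 short arm had a lower median fold than its neighbour in 3 of 3 replicates, with differences of -0.087, -0.097 and -0.071, and a lower share of peaks met by both other replicates, with differences of -8.47, -8.51 and -0.94 points (p = 0.25 each in the same exact test). These comparisons, too, were added after the data were seen. In replicate 3 the change on chromosome 4 came farther in. The window from 18000001 to 18500000 was covered to 12.96%, the next ones to 20.4%, 25.9% and 28.3%, and the window from 20000001 to 20500000 to 43.6%. On chromosome 10 the coverage in replicate 3 was still 11.04% in the window from 12500001 to 13000000, inside the long arm interval, and reached 34.7% in the window from 18000001 to 18500000.

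**Figure D2:**
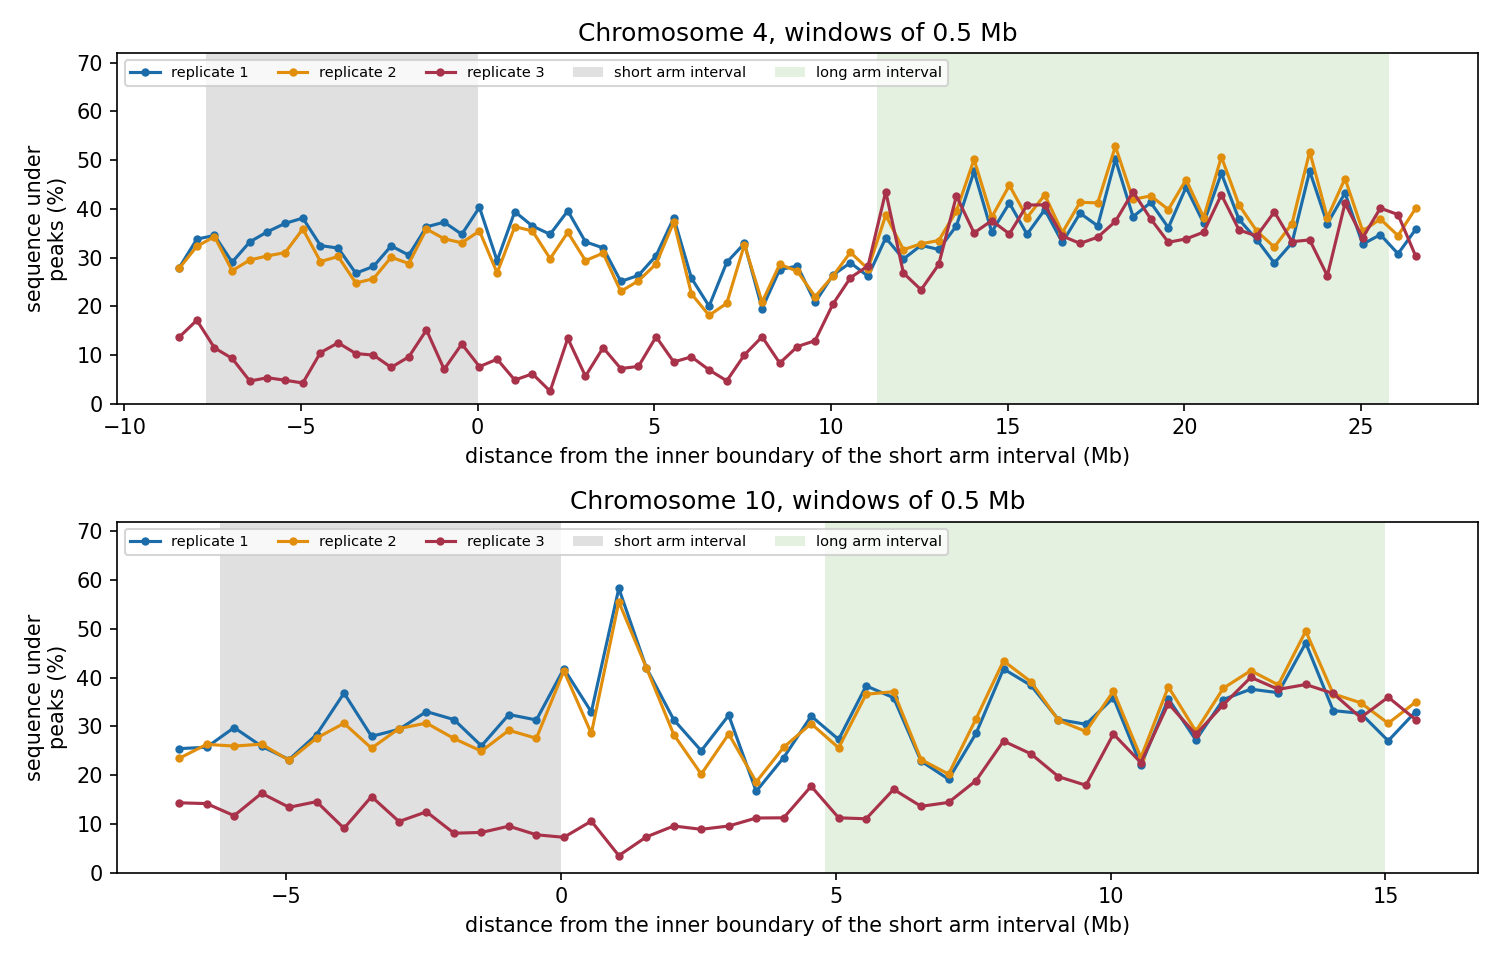
Covered sequence (percent) in windows of 0.5 Mb along chromosomes 4 and 10, plotted by the distance in Mb from the inner boundary of the short arm interval (grey), with the long arm interval in green; lines are the 3 replicates. Replicate 3 runs far below the others across both short arms, between 4.28% and 16.3%, and continues so past the boundary; on chromosome 4 it reaches the others in the last window before the long arm interval, at 28.3%.

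Peaks on the short arms were weaker as well as fewer. The fold enrichment is the authors' value for each peak, a linear ratio, and its scale may differ from list to list. Input levels on the arms are not in the lists, so their part in the fold was not tested. On the chromosome 4 short arm the median fold was 2.35, 1.79 and 1.88 in replicates 1, 2 and 3, against 3.21, 2.42 and 2.097 on the long arm. The short arm was lower in 3 of 3 replicates, by a mean difference of -0.57 ± 0.33 (SD, n = 3; exact two-sided sign-flip permutation test, p = 0.25, adjusted p = 0.325). On the chromosome 10 short arm the medians were 2.48, 1.90 and 1.93, against 2.95, 2.21 and 2.01 on the long arm. There the mean difference was -0.29 ± 0.20 (SD, n = 3), again lower in 3 of 3 replicates (exact two-sided sign-flip permutation test, p = 0.25, adjusted p = 0.325).

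To set lists with different folds side by side, each peak was ranked within its own list. The median peak of the chromosome 4 short arm stood at percentile 30.7, 28.0 and 37.3 of its list in replicates 1, 2 and 3, and that of the long arm at percentile 62.6, 62.5 and 55.4. The mean difference was -28.2 ± 8.78 percentiles (SD, n = 3; exact two-sided sign-flip permutation test, p = 0.25). For chromosome 10 the percentiles were 36.1, 34.4 and 41.6 on the short arm and 54.2, 52.0 and 48.2 on the long arm. The mean difference was -14.1 ± 6.51 percentiles (SD, n = 3; exact two-sided sign-flip permutation test, p = 0.25). In replicate 3, the list with the fewest peaks on these arms, the peaks were nearer the middle of their list than in replicates 1 and 2.

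The weak end of each list was over-represented and the strong end under-represented on the short arms. In replicates 1 and 2, 19.6% and 20.9% of the chromosome 4 short arm peaks fell in the lowest decile of their list by fold and 2.90% and 3.51% in the highest. In replicate 3 the shares were 13.3% and 7.22%. Of the chromosome 10 short arm peaks, 17.9%, 17.6% and 12.7% fell in the lowest decile and 4.42%, 4.91% and 8.99% in the highest. A fold of at least 2 was reached by 68.9%, 35.8% and 41.5% of peaks on the chromosome 4 short arm and by 72.2%, 43.5% and 45.2% on the chromosome 10 short arm. Over the 12 chromosomes the shares were 83.0%, 59.8% and 52.8%. The short arms lay below that background in all 3 replicates. The sequence between the short and long arm intervals leaned the same way. There 17.5%, 17.6% and 11.2% of peaks fell in the lowest decile on chromosome 4 and 18.7%, 19.0% and 15.5% on chromosome 10. The highest decile held 4.71%, 6.07% and 9.31% on chromosome 4 and 3.67%, 5.50% and 8.91% on chromosome 10.

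**Figure D3:**
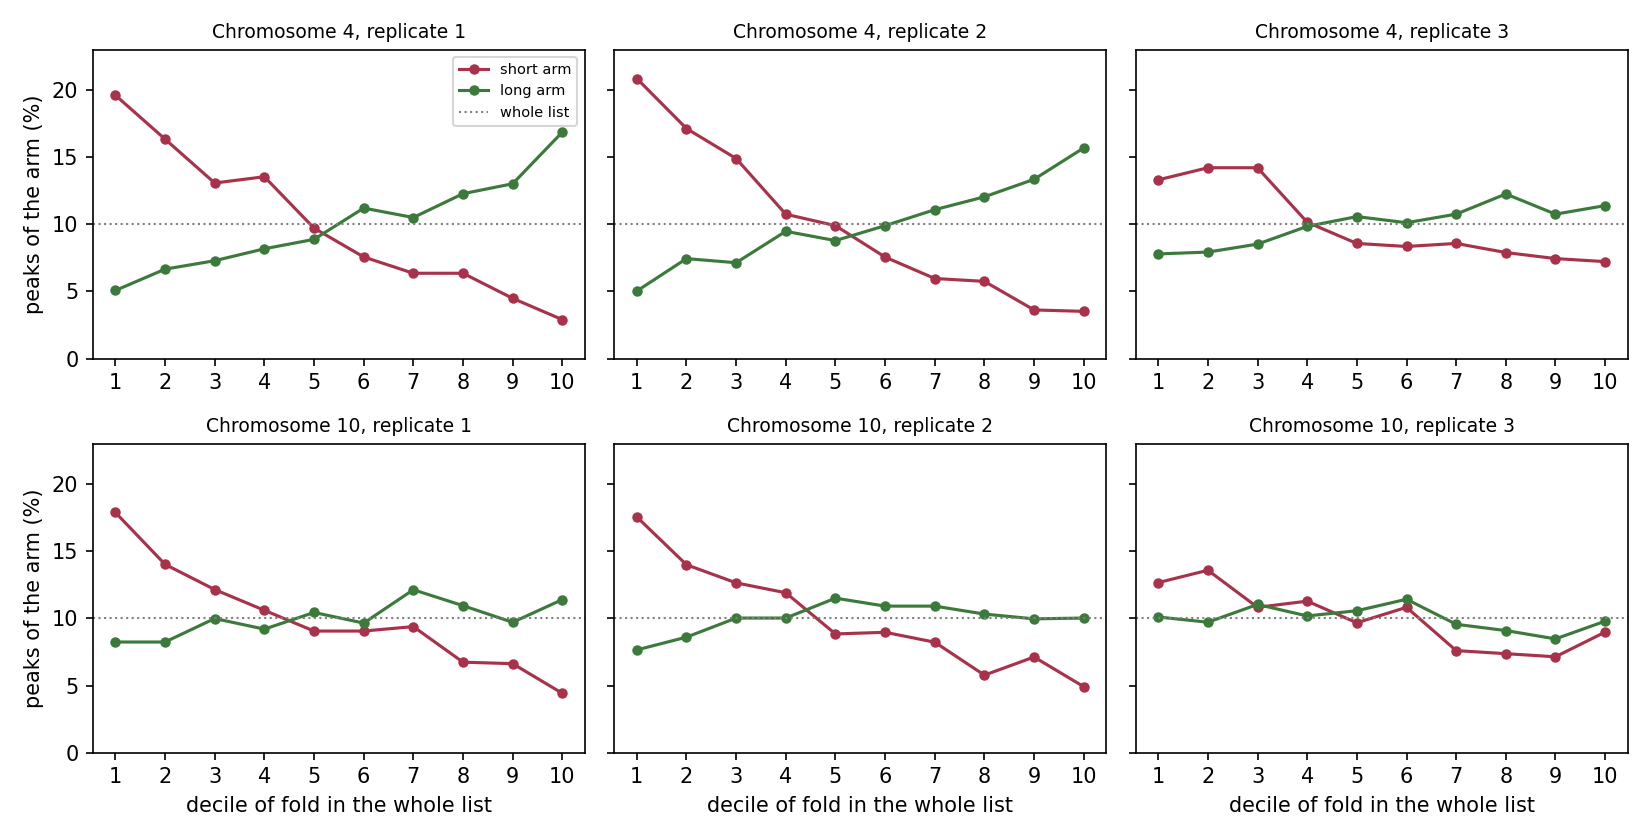
Share of the peaks of an arm (percent) in each decile of fold of the whole list, for the short arms (red) and long arms (green) of chromosome 4 (top) and chromosome 10 (bottom) in each replicate; the dotted line marks an even spread. Short arm peaks crowd into the low deciles, most so in replicates 1 and 2, where 17.6% to 20.9% of them lie in the lowest.

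Median peak width did not follow the same pattern. The median width on the chromosome 4 short arm was 1400 bp in replicate 1 and 1600 bp in replicate 2, the same as on the long arm, and 1200 bp in replicate 3 against 1800 bp. On chromosome 10 the medians were again equal in replicates 1 and 2, at 1400 and 1600 bp, and 1400 against 1600 bp in replicate 3. The exact two-sided sign-flip permutation test gave p = 1 for both chromosomes, with mean differences of -200 ± 346 and -66.7 ± 115 bp (SD, n = 3). The upper end of the widths differed. On chromosome 4 the 90th percentile was 5000, 5000 and 2800 bp on the short arm and 4000, 4400 and 4600 bp on the long arm in replicates 1, 2 and 3. For chromosome 10 it was 4400, 4400 and 2940 bp on the short arm against 3800, 4200 and 4000 bp. By this percentile the short arms were above the long arms in replicates 1 and 2 and below them in replicate 3.

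Broad peaks of 10 kb or more were present on the short arms in replicates 1 and 2 and were not listed there in replicate 3. On the chromosome 4 short arm they numbered 37, 30 and 0 in replicates 1, 2 and 3, which is 3.46% and 3.19% of the peaks in the first and second lists. The long arm of chromosome 4 had 45, 50 and 20, or 1.67%, 1.92% and 0.912%. The chromosome 10 short arm had 15, 16 and 0, or 1.66% and 1.97% of its peaks in replicates 1 and 2, and its long arm 20, 20 and 4, or 1.13%, 1.19% and 0.311%. On the other 10 chromosomes the shares were 1.52%, 1.44% and 0.365%, so those of the chromosome 10 short arm were near this background in replicates 1 and 2. Replicate 3 had only 443 and 434 peaks on the short arms, so a count of 0 was near the background too. The chromosome 4 short arm was like the sequence next to the short arms. There the shares in replicates 1 and 2 were 2.79% and 3.11% on chromosome 4 and 3.35% and 3.90% on chromosome 10. The widest replicate 3 peak was 6800 bp on the chromosome 4 short arm and 7000 bp on the chromosome 10 short arm, whereas in replicate 1 the widest measured 23200 and 20800 bp.

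Stretches without peaks were longer in replicate 3 than in the others, on the short and on the long arms. On the chromosome 4 short arm the median gap between neighbouring peaks was 3400, 3700 and 7600 bp in replicates 1, 2 and 3, and the longest gap was 59600, 58600 and 127000 bp. Gaps of at least 20 kb added up to 0.537, 0.974 and 4.94 Mb of the 7.7 Mb. For the chromosome 10 short arm the median gaps were 3400, 3800 and 7000 bp, and the longest measured 36200, 51600 and 173000 bp. On the long arms the median gap in replicate 3 was 2800 bp for chromosome 4 and 3200 bp for chromosome 10.

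In the union of the 3 lists, the longest stretches of the chromosome 4 short arm with no peak in any list were from 5905601 to 5948400 (42800 bp), from 4465401 to 4497000 (31600 bp) and from 5985601 to 6012800 (27200 bp). Those of the chromosome 10 short arm were from 3404001 to 3433200 (29200 bp), from 1927801 to 1952600 (24800 bp) and from 6189601 to 6213200 (23600 bp). Empty stretches of this size also occurred on the chromosome 10 long arm, where the longest was 42000 bp, and were shorter on the chromosome 4 long arm, where it was 20800 bp.

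Most merged regions of the short arms were not held by all 3 replicates. On the chromosome 4 short arm 380 of 1104 regions (34.4%) held a peak of every replicate, and on the chromosome 10 short arm 383 of 931 (41.1%). The share over the 12 chromosomes was 58.7%, and it was 75.8% and 63.4% on the long arms of chromosomes 4 and 10. The largest class on the chromosome 4 short arm was held by replicates 1 and 2 without replicate 3, with 436 regions (39.5%), against 11.6% on the long arm and 22.1% over the 12 chromosomes. That class had on the chromosome 10 short arm 334 regions (35.9%), against 19.0% on the long arm. The sequence between the short and long arm intervals resembled the short arms. There the class of replicates 1 and 2 took 34.6% on chromosome 4 and 33.7% on chromosome 10, and regions of all 3 replicates 42.1% and 40.4%. Regions held by replicate 1 alone made up 16.9% and 13.9% on the short arms of chromosomes 4 and 10, and regions of replicate 3 alone 2.45% and 2.15%. Over the 12 chromosomes these classes took 8.54% and 4.24%. Between the arm intervals of chromosomes 4 and 10, replicate 1 alone held 14.1% and 15.6%, and replicate 3 alone 3.15% and 3.33%.

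The regions that replicate 3 lacked were the weaker ones. On the chromosome 4 short arm, the regions held by replicates 1 and 2 only had a median fold of 2.17 in replicate 1 and 1.63 in replicate 2, against 2.97 and 2.20 in regions held by all 3. Their median widths were 2200 and 2000 bp. For chromosome 10 the short arm medians were 2.24 and 1.66 in regions of replicates 1 and 2 only, against 3.08 and 2.28 in regions of all 3. The long arms showed the same order, with 2.38 and 1.67 against 3.52 and 2.59 on chromosome 4.

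Counted in bases, 6.71% of the chromosome 4 short arm and 8.36% of the chromosome 10 short arm lay under peaks of all 3 replicates, against 25.3% and 18.4% of the long arms. A further 21.3% and 17.97% of the short arms lay under peaks of 2 replicates, more than on the long arms with 14.1% in each. Of the bases under replicate 1 peaks on the chromosome 4 short arm, 81.3% were under replicate 2 peaks and 20.8% under replicate 3 peaks. On the long arm these shares were 94.1% and 67.9%. Of the bases under replicate 3 peaks on the short arm, 76.8% were under replicate 1 peaks, against 71.7% on the long arm. The few replicate 3 peaks of the short arm were thus placed on replicate 1 peaks as fully as those of the long arm.

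**Figure D4:**
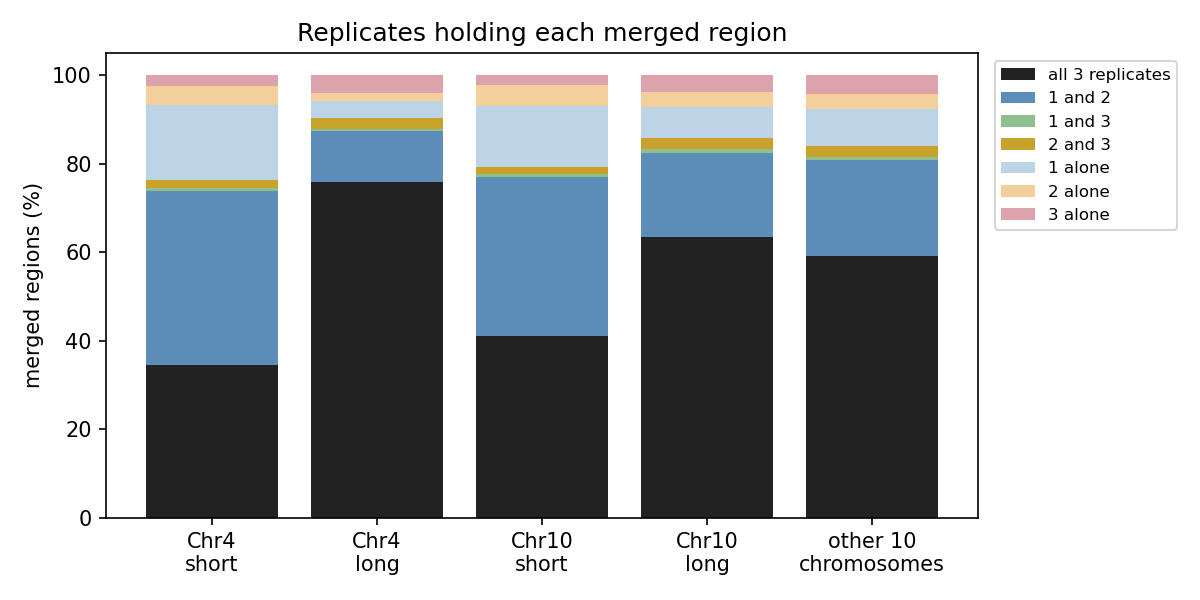
Share of merged regions (percent) by the replicates that hold them, for the short and long arms of chromosomes 4 and 10 and for the other 10 chromosomes. The class of replicates 1 and 2 without replicate 3 takes 39.5% and 35.9% on the short arms, against 11.6% and 19.0% on the long arms.

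Recurrence depended on which list was asked. Of the replicate 1 peaks on the chromosome 4 short arm, 37.4% overlapped a peak of both other replicates by at least 1 bp, and of those of replicates 2 and 3, 41.7% and 87.4%. On the long arm the shares were 83.3%, 82.2% and 91.6%. The difference was -45.9, -40.4 and -4.21 points (exact two-sided sign-flip permutation test, p = 0.25, adjusted p = 0.325). For the chromosome 10 short arm the shares were 44.2%, 48.4% and 89.6%, against 70.5%, 71.4% and 89.7% on the long arm, and the differences were -26.3, -23.0 and -0.10 points (the same exact test, p = 0.25, adjusted p = 0.325). Over the 12 chromosomes 65.8%, 67.4% and 88.9% of peaks were met by both other replicates. Replicate 3 peaks on the short arms were therefore met about as often as elsewhere, while peaks of replicates 1 and 2 were met less often. Without replicate 3 only a peak of the remaining list had to be met, which is a looser measure. Its mean difference was -7.80 points on chromosome 4 and -3.76 on chromosome 10.

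The lower recurrence in replicate 3 was present within quintiles of fold. In the second quintile of the replicate 1 list, with folds from 2.08 to 2.57, replicate 3 met 71 of 285 peaks on the chromosome 4 short arm (24.9%) and 307 of 418 on the long arm (73.4%). In the third quintile it met 47.6% and 84.5%, and in the highest 69 of 79 (87.3%) and 784 of 808 (97.0%). On chromosome 10 the shares were 34.95% and 63.2% in the second quintile and 88.0% and 96.3% in the highest. The short arms were lower than the long arms in all 5 quintiles on both chromosomes, and the same held for the peaks of replicate 2 met by replicate 3. Peaks were not matched in width. On chromosome 4 the replicate 1 medians on the short and long arms were 1400 and 1800 bp in the second quintile and 1000 and 1600 bp in the third. In the lowest quintile the short arm peaks were the wider, at 2400 against 2000 bp. In the highest quintile the median folds were 4.36 and 4.64. The part of width was not tested.

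Between replicates 1 and 2 the arms were closer. Replicate 2 met 80.7% of the replicate 1 peaks of the second quintile on the chromosome 4 short arm and 94.0% on the long arm. On chromosome 10 it met 87.9% and 88.8%. Replicate 1 met 91.7% and 91.2% of replicate 2 peaks of the second quintile on the short and long arms of chromosome 4. Peaks meet by chance less often where a list covers less, and replicate 3 covered 8.98% of the chromosome 4 short arm against 35.8% of the long arm. The part of chance in these shares was not tested. Peaks of one list share a library, so the shares carry no p-value.

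**Figure D5:**
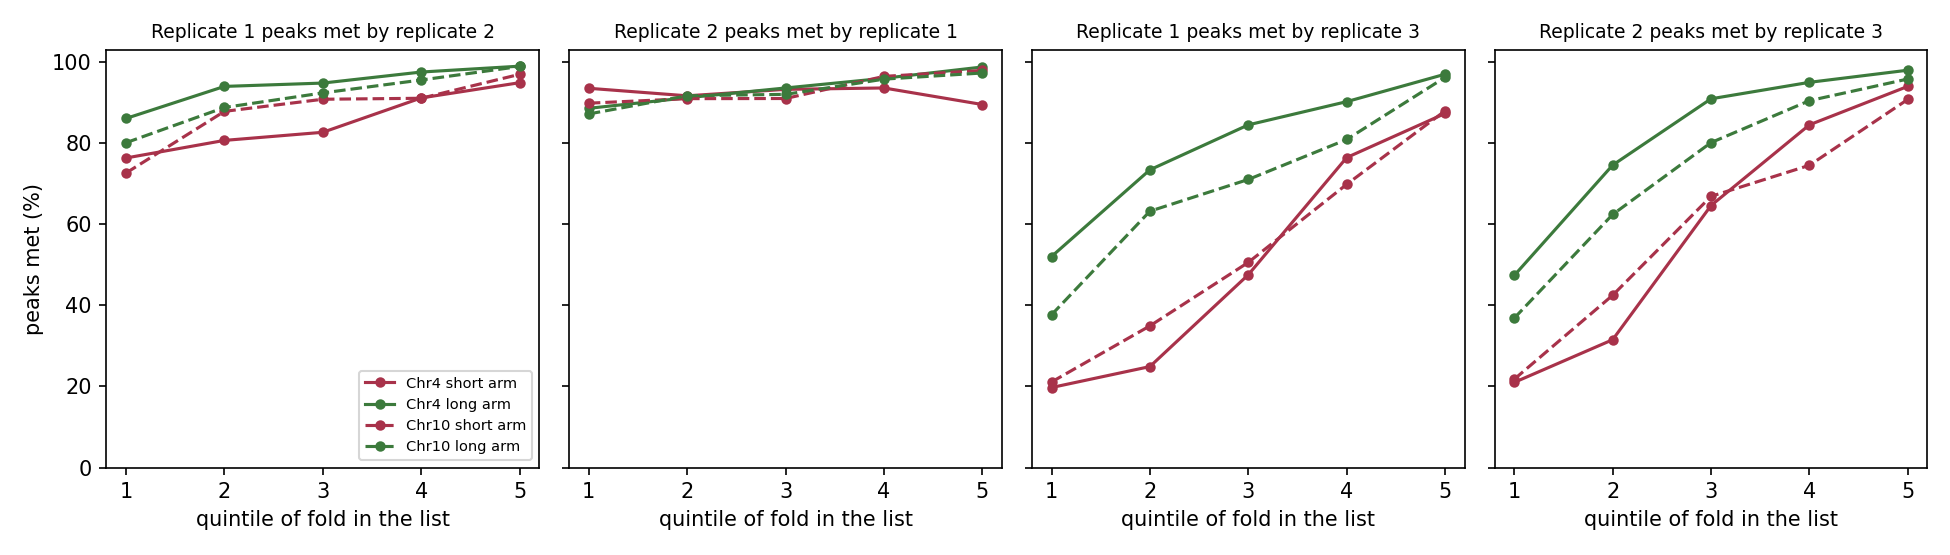
Share of peaks (percent) met by a peak of another replicate, by quintile of fold in the list, for the short arms (red) and long arms (green) of chromosome 4 (solid) and chromosome 10 (dashed). Replicates 1 and 2 meet most of each other's peaks on all arms, and replicate 3 meets 19.7% to 34.95% of replicate 1 peaks in the 2 lowest quintiles of the short arms against 37.7% to 73.4% on the long arms.

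The regions of the short arms held by all 3 replicates still included strong sites. A median fold over the replicates of at least 3 was reached by 46 of the 380 shared regions on the chromosome 4 short arm (12.1%) and 61 of 383 on the chromosome 10 short arm (15.9%), against 23.4% of shared regions on the 12 chromosomes. This is 5.97 and 9.84 such regions per Mb, against 39.2 and 25 per Mb on the long arms of chromosomes 4 and 10. The order of the replicates in shared regions was the usual one for the lists: the fold was highest in replicate 1 in 85.8% and 85.4% of those on the short arms, against 86.4% over the 12 chromosomes. It was lowest in replicate 3 in 68.9% and 72.1%, against 76.9%. Across the shared regions the rank order of the fold had a Spearman rho of 0.67 between replicates 1 and 2 on either short arm, 0.43 between replicates 1 and 3 over the 380 regions of chromosome 4 and 0.38 over the 383 of chromosome 10. These coefficients describe regions of the same libraries and carry no p-value.

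The strongest shared region of the chromosome 10 short arm by median fold ran over 1400 bp from 2613801 to 2615200, and its folds were 7.10, 5.74 and 4.39. It stood at or above percentile 99.5 of each list, so it was among the strongest peaks of the genome in all 3 lists. The next were from 4782801 to 4783600 (folds 5.74, 4.97 and 2.88), from 1019401 to 1019800 (5.57, 4.75 and 2.99), from 5780401 to 5781400 (4.67, 4.78 and 2.50) and from 5797801 to 5799800 (5.23, 4.61 and 2.12). The last of these was at percentile 95.5 and 98.9 in replicates 1 and 2 and near the middle of the replicate 3 list, at percentile 56.9.

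On the chromosome 4 short arm the highest was from 4921401 to 4922800, again of 1400 bp, where the folds were 5.48, 4.70 and 3.10, at percentiles 96.7, 99.1 and 96.7. A region of 2000 bp from 1135801 to 1137800 had folds of 5.89, 4.46 and 1.53, at percentile 98.0 and 98.6 in replicates 1 and 2 and percentile 9.39 in replicate 3. The others were from 1009601 to 1010400 (folds 6.002, 4.45 and 3.001), from 2475601 to 2476400 (6.24, 4.32 and 2.62) and from 5141201 to 5142200 (4.26, 4.71 and 2.66). Replicate 3 had the lowest fold in all 10 of these regions, which were picked by the same folds, so their order is not independent of the choice. In 9 of the 10 the region was 1 peak in each list. This is near the background, 87.6% and 88.0% of shared regions on the short arms of chromosomes 4 and 10 and 85.1% over the 12 chromosomes.

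The widest merged regions of the chromosome 4 short arm were spread along it. They ran from 2555801 to 2580400 (24600 bp, highest folds 2.20, 1.498 and 2.18), from 7764401 to 7787600 (23200 bp, folds 1.67 and 1.40, no replicate 3 peak) and from 5752401 to 5773400 (21000 bp, folds 1.81, 1.41 and 1.31). On chromosome 10 the 3 widest lay beside each other near the inner boundary, from 7033401 to 7054800 (21400 bp), from 7056801 to 7112600 (55800 bp) and from 7123601 to 7147400 (23800 bp). In this stretch of 114000 bp, chosen after its values were seen, 80.7%, 86.1% and 4.74% of the sequence lay under peaks of replicates 1, 2 and 3. The stretch held 11, 6 and 5 peaks, the widest of 20800, 38000 and 1800 bp, with median folds of 1.96, 1.52 and 1.86. Since the stretch was picked for its wide regions, a high covered share in at least 1 list follows from the choice. Its widest region, of 55800 bp, had highest folds of 3.51, 2.01 and 3.04, at percentiles 71.6, 40.7 and 96.0 of the lists. The highest folds were 2.045, 1.29 and 1.24 in the region of 23800 bp and 1.96, 1.31 and 1.86 in that of 21400 bp.

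The nearest peak on either side of each inner boundary is given once for each list. At 8.7 Mb on chromosome 4 the last peaks inside had folds of 2.23, 1.75 and 1.64 in replicates 1, 2 and 3, and the first outside 1.81, 1.63 and 2.08. At 7.2 Mb on chromosome 10 the folds were 1.45, 1.29 and 1.77 inside and 1.89, 1.49 and 1.72 outside. The widths were 800, 1600 and 2400 bp inside and 5600, 5400 and 1200 bp outside on chromosome 4, and 5200, 11000 and 1200 bp inside and 14200, 12400 and 2200 bp outside on chromosome 10. These values describe the boundary of the rule and were not tested.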

How the data were processed

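Chromatin immunoprecipitation sequencing was done on leaf blades, and peaks were listed per replicate for the 3 IP samples. MACS2 2.1.2, Bowtie2 2.4.1, Trimmomatic 0.33 and bcl2fastq 2.19 are listed, with no roles, per the submitters' processing notes. How the inputs were used, the caller settings and the genome build were not given in the sources used here; a different use of the inputs would change every fold. Per the file headers, the fold enrichment is a linear ratio, and the deposited p-value and FDR come from the authors' caller, with no FDR above 1e-05. Within each list the pileup column is a constant times the fold and was not used. The fold of a list thus shows no divisor that varies with position, and whether the input differed between the arms was not tested. All positions lie on a grid of 200 bp and peaks of one list are at least 800 bp apart, so joining of windows may set widths and numbers. Positions are printed counting from 1.

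The covered share is the part of an interval under peaks, with peaks clipped to it. Members were found by midpoint, and members of the 3 lists that overlapped by at least 1 bp were merged. Each region takes, per replicate, the highest fold of its peaks. Arms were compared within each list with an exact two-sided sign-flip permutation test over the 3 replicates. On simulated lists the made differences in covered share were recovered, and the p-values of the test were not assessed. The rule read "from 1" as 1 Mb, and starting at base 1 was an alternative. Named regions are, on each short arm, the 5 regions of all 3 replicates that are highest by median fold, the 3 widest and the 3 longest stretches without a peak, with the highest and lowest windows. The members, intervals and tests were chosen with earlier results of these data known. Alternatives were a fold of at least 2, a stricter FDR of at most 1e-20, lists of equal length (41474 peaks by FDR), boundaries moved by 1 Mb, a 50% overlap, regions in 2 or more replicates, and leaving out each replicate. Genes were not assigned, because the last gene of the table at hand lies past the last peak on all 12 chromosomes. The tools were scipy 1.17.1, pandas 2.3.3, numpy 2.4.6 and matplotlib 3.10.9 under Python 3.11.15.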

Additional observations from a re-analysis of the deposited data

How the results depend on the processing

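Each comparison of a short with a long arm in covered share, peak density, fold, fold percentile and recurrence kept its mean direction under every alternative listed in the methods. Single replicates did not always do so. For recurrence on chromosome 10 the replicate 3 difference was 2.03 points with a 50% overlap and 0.16 with the boundary nearer the start. It was also above 0 in replicate 3 when replicate 1 or 2 was left out, where only a peak of the remaining list had to be met. The smallest exact p over all settings was 0.25. No paired analysis was possible because the inputs have no peak lists, and the arms were compared within each IP list.

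Restricted to folds of at least 2, the difference in covered share between the chromosome 4 and chromosome 10 short arms was -0.63, with an FDR of at most 1e-20 -0.15 and with lists of equal length -0.13, and it ranged from -0.26 to 2.09 when each replicate was left out. The sequence between the short and long arm intervals was also put in place of the long arm, a choice made after the data were seen. The mean difference then changed sign in 3 results. It was 1.14 points for the covered share on chromosome 4, against -13.8 with the long arm. On chromosome 10 it was 12.1 for the peaks per Mb, against -39.2, and 0.0016 for the median fold, against -0.29. The cause was not tested.

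The difference in median width was 0 on both chromosomes with lists of equal length, 0 on chromosome 4 with the boundary farther in and 0 on chromosome 10 against the other chromosomes. It ranged from -300 to 0 and from -100 to 0 without each replicate.

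The regions held by all replicates on the chromosome 4 and chromosome 10 short arms numbered 140 and 139 with a fold of at least 2, 227 and 229 with the stricter FDR, and 843 and 737 when 2 or more replicates sufficed. Leaving out each replicate gave 392 to 827 and 387 to 728, the highest without replicate 3. The bases under all replicates were 2.41% and 2.99% with a fold of at least 2, 4.50% and 5.75% with the stricter FDR and 5.66% and 7.15% with equal lists. They were 7.26% on chromosome 4 from base 1 and 8.94% on chromosome 10 with the boundary nearer the start, and 6.90% to 27.0% and 8.63% to 25.1% without each replicate. These fall with the peaks or lists that enter by construction. The lists give no depth, so a missing peak cannot be told apart from a shallow library.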

Other observations

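Just past the inner boundary of the chromosome 10 short arm, the window from 8000001 to 8500000 had 58.3%, 55.6% and 3.48% of its sequence under peaks of replicates 1, 2 and 3. It had the highest coverage of the chromosome in replicates 1 and 2 and the lowest in replicate 3. The interval from 7.2 to 12 Mb held peaks wider than any on either arm interval, of 68800 bp in replicate 1 and 70800 bp in replicate 2, and its widest replicate 3 peak was 5400 bp. The window was singled out after its values were seen.

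At the tips left out by the rule, the first 2 windows of 0.5 Mb on chromosome 4 were covered to 27.9% and 33.8% in replicate 1, 27.8% and 32.3% in replicate 2 and 13.7% and 17.2% in replicate 3. On chromosome 10 they were covered to 25.4% and 25.7%, 23.4% and 26.3%, and 14.3% and 14.2%. In replicate 3 the tip windows of chromosome 4 were above the median window of the arm, 9.64%, and those of chromosome 10 above the median of 11.1%.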
